A study of Homo sapiens with 12 samples.

Results

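FBXO5, the inhibitor of the anaphase-promoting complex (APC/C), was followed together with 9 genes of the complex and its immediate partners in ribosome profiling data of HCT116 cells treated with the MEK inhibitor trametinib. The set held FBXO5, the activators CDC20 and FZR1, the subunits ANAPC1, CDC16, CDC23 and CDC27, the ubiquitin-conjugating enzymes UBE2C and UBE2S, and the substrate PTTG1. These were 10 of the 15798 genes in the table of counts. All 10 passed the filter on low counts, which 10663 genes passed. FBXO5 was selected on its change in ribosome density under trametinib, known from earlier results of the same counts, and the other 9 were chosen by their role around the APC/C with those results in view. The trametinib changes of the 10 genes are therefore given as a description, without p-values.

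The APC/C is a ubiquitin ligase that marks cyclins, securin and many other proteins for destruction, and in this way times anaphase, the exit from mitosis and the low cyclin state of G1. It works with an activator, which is CDC20 in mitosis and FZR1 (also called CDH1) from late mitosis through G1. UBE2C places the first ubiquitin on a substrate and UBE2S extends the chain. FBXO5 (also called EMI1) holds the complex inactive from the start of S phase until mitosis, when the kinase PLK1 and the ligase SCF with beta-TrCP bring about its own destruction.

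HCT116 is a single human colorectal cancer cell line. The cells received 100 nM trametinib, which blocks the kinases upstream of ERK, or the solvent DMSO for 24 h, in 3 biological replicates of each treatment. Cycloheximide was added to all dishes shortly before lysis. Each replicate gave a library of randomly fragmented cytoplasmic RNA (input) and a library of the mRNA stretches that a ribosome had protected from RNase I (footprints), so that 12 libraries fell into 4 groups of 3.

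Depth, as the sum of counts in reading frames, ranged from 2276693 to 2845568 for input and from 10127477 to 19181588 for footprints, and input was the less precise assay (median standard error, SE, of a log2 change 0.216, against 0.152 for footprints). The ERK target genes DUSP6, SPRY4 and ETV5 were called lower in input and in footprints in the libraries labelled trametinib, and the epithelial markers EPCAM, KRT8, KRT18, KRT19 and CDH1 were present in all groups. PTPRC and PECAM1, markers of leukocytes and endothelium, had at most 1 raw count in any input library. COL3A1, a collagen of fibroblasts, had 0 to 1 raw counts in DMSO input and 25 to 42 in trametinib input. In footprints COL3A1 had 1 to 3 raw counts in DMSO and 167 to 328 in trametinib. COL1A1, also a collagen of fibroblasts, was present in both treatments, with 19 to 36 raw counts in DMSO input and 14 to 35 in trametinib input. Its input change was not called (edgeR adjusted p = 0.72). The part of COL3A1 in any other result was not tested. The libraries of DMSO replicate 1 stood apart from the other DMSO libraries. Their deviations from the group means correlated at 0.816 between input and footprints across 7676 genes, against -0.122 to 0.344 for the other 5 replicates. Results are given with the DMSO replicate 1 libraries, and only some of them also without. A bulk library cannot tell fewer cycling cells from less RNA of a gene per cell. Values are counts divided by the size factor of the library (normalized counts), so that a change shared by all mRNAs is not visible.

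FBXO5 (ENSG00000112029) lies on the minus strand of chromosome 6, from 152970519 to 152983579 in GRCh38. It has annotated start sites 538 bases apart. The downstream start, at 152983041, belongs to the representative (MANE Select) transcript, and its window holds the CHR element, spelled TTTGAA or TTTAAA, next to the CCAAT box, an arrangement known from promoters of genes that peak late in the cell cycle. The windows of CDC20 and PTTG1 hold both motifs upstream of the start as well, and the upstream start of FBXO5 holds neither, which is why these 4 stretches are shown. The CDC27 window, not shown, also holds both, with CCAAT letters 226 bases before the start and CHR letters from position 41, counted from 1 at the start, and CDC27 was not called in input. All come from RefSeq (GRCh38.p14), read 5′ to 3′ on the strand of the gene, and end before the start site. Capitals mark CHR and CCAAT letters on either strand; adjoining capitals in CCAATTGG are overlapping boxes of opposite strands.
FBXO5, downstream start, chr6:152983057-152983192, minus strand: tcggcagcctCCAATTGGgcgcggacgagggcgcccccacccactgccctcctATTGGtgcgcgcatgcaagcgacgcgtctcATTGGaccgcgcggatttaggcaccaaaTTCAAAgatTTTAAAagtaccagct
FBXO5, upstream start, chr6:152983580-152983639, minus strand: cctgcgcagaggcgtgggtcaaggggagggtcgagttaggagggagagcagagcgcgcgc
CDC20, chr1:43358793-43358940, plus strand: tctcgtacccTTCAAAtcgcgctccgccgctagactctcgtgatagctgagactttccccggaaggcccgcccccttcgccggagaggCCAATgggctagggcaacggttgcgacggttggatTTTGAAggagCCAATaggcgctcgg
PTTG1, chr5:160421742-160421841, plus strand: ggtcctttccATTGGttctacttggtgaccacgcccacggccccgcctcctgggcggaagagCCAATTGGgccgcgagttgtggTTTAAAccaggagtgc

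RefSeq windows, from 250 bases before to 50 after a start, were matched by symbol for 9 of the 10 genes, all but UBE2C, and came to 12 windows. CHR letters were in 7 of the 12 windows, against 24.0% of all 35116 windows searched on both strands. CCAAT was in 8 of the 12, against 34.6% of all windows. The E2F site (TTTCCCGC, TTTCGCGC, TTTGCCGC or TTTGGCGC) was in 2, those of CDC23 and CDC16, against 3.3%. No motif contains the letters of another, and TTTAAA reads the same on both strands. The PTTG1 windows overlap, and their shared matches count in each of them. By gene, CHR letters were in 6 of the 9 and CCAAT in 7. A CHR match upstream of a start was found in 4 of the 9 genes: FBXO5, CDC20, PTTG1 and FZR1. FZR1 carried it 226 bases before its start and had no called change in either assay. These matches are letters in a window and do not show binding.

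The pair of FBXO5 start sites matters for reading the counts, because they give different open reading frames. The representative transcript has a leader of 82 bases with 0 ATG triplets ahead of its start codon and a coding sequence of 1344 bases. The transcript from the upstream site has a leader of 381 bases with 3 ATG triplets and a coding sequence of 1206 bases, which begins 46 codons later in the same frame. The shorter coding sequence covers 89.7% of the longer one, and counts per gene symbol cannot tell the transcripts apart. Among tested genes, 60.2% of representative leaders hold 0 ATG triplets. Of the other 9 genes, ANAPC1 has 3, PTTG1 has 2 and CDC27 has 1.

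FBXO5 mRNA fell under trametinib, and its footprints fell much further. In input, FBXO5 had 551.6, 513.5 and 417.3 normalized counts in DMSO replicates 1 to 3 and 119.4, 75.6 and 80.7 in trametinib. In footprints, it had 546.6, 651.8 and 685.3 in DMSO and 22.5, 20.3 and 26.8 in trametinib. All trametinib libraries lay under all DMSO libraries in both assays. The raw counts behind these values were 178 to 257 in DMSO input, 29 to 49 in trametinib input, 1006 to 1877 in DMSO footprints and 49 to 73 in trametinib footprints. The log2 change was -2.43 (SE 0.21) in input and -4.78 (SE 0.16) in footprints, so that 18.5% of the DMSO level was retained in input and 3.64% in footprints. Without the DMSO replicate 1 library these changes were -2.34 in input and -4.87 in footprints.

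Footprints per input, the ribosome density of an mRNA, were 0.991, 1.27 and 1.64 for FBXO5 in the 3 DMSO replicates. They were 0.189, 0.268 and 0.332 under trametinib. The highest trametinib value was well under the lowest DMSO value. Relative to all tested genes, whose median was 1.02 in DMSO and 1.01 in trametinib, FBXO5 moved from percentile 63.1 to percentile 4.66. The fitted log2 change of density was -2.34 (SE 0.29), which is 5.07-fold lower and rank 7 from the lowest of 10663 genes. Without the DMSO replicate 1 input library the density change was -2.43, and without the DMSO replicate 1 footprint library it was also -2.43. This change chose the gene, and its size is no independent evidence.

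**Figure D1:**
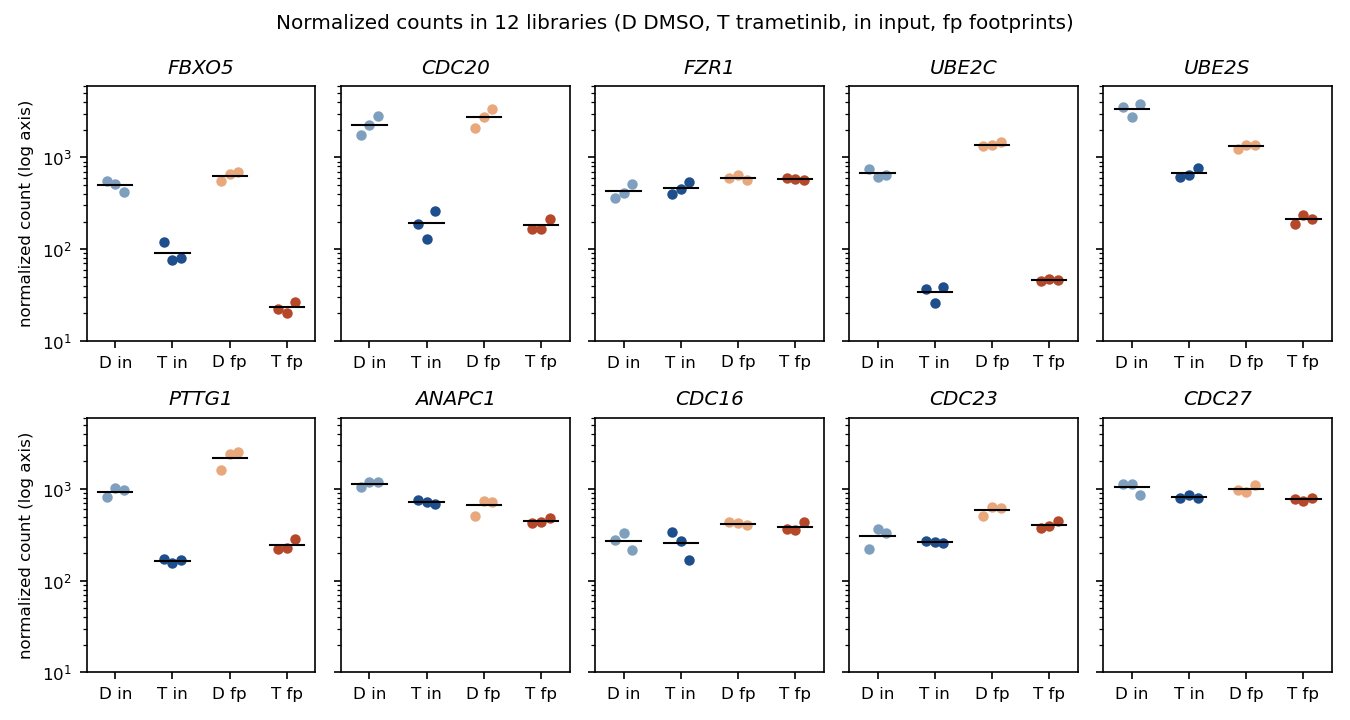
Normalized counts of the 10 genes in each of the 12 libraries on a log axis, with 1 point per library and a bar at the mean of 3 replicates (D DMSO, T trametinib, in input, fp footprints). FBXO5 sat between 20.3 and 26.8 in trametinib footprints, where its input was between 75.6 and 119.4. The log2 changes in input and footprints were -3.57 and -3.93 for CDC20 and -4.3 and -4.93 for UBE2C.

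Of the activators, CDC20 was lower in every trametinib library, and FZR1 had no called change. CDC20 (ENSG00000117399), the mitotic activator, had 1768.5, 2248.4 and 2813.0 normalized input counts in DMSO and 190.1, 127.8 and 260.3 in trametinib. Its footprints were 2083.4, 2727.6 and 3391.4 in DMSO and 167.0, 165.9 and 211.1 in trametinib. The groups did not overlap in either assay. CDC20 changed by -3.57 (SE 0.25) in input and by -3.93 (SE 0.20) in footprints on the log2 scale. Its footprints per input, 1.18, 1.21 and 1.21 in DMSO and 0.878, 1.3 and 0.811 in trametinib, overlapped, and the density estimate was -0.35 (SE 0.36). That estimate was -0.07 without trametinib input replicate 3.

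FZR1 (ENSG00000105325), the activator of G1, differed from its DMSO level by less than the spread of the replicates. It had 364.9, 407.8 and 515.7 normalized input counts in DMSO and 397.3, 448.7 and 541.5 in trametinib. Its footprints were 593.0, 636.2 and 571.7 in DMSO and 600.9, 580.6 and 561.1 in trametinib. The groups overlapped in both assays. The log2 estimates were 0.09 (SE 0.19) in input, -0.07 (SE 0.10) in footprints and -0.15 (SE 0.21) for density, and the sign of each differed between settings of the analysis.

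UBE2C and UBE2S, the enzymes that build the ubiquitin chains, were lower in every trametinib library. UBE2C (ENSG00000175063) fell from 746.9, 617.1 and 644.6 normalized input counts in DMSO to 36.6, 26.1 and 39.1 in trametinib, the lowest of which rested on 10 raw counts. Its footprints were 1322.7, 1357.3 and 1461.8 in DMSO and 44.7, 46.8 and 46.0 in trametinib. With log2 changes of -4.30 (SE 0.22) and -4.93 (SE 0.12), UBE2C had the lowest estimate of the 10 genes in each assay. UBE2S (ENSG00000108106) went from 3560.7, 2761.9 and 3783.5 to 611.8, 639.1 and 765.4 in input. UBE2S footprints went from 1240.5, 1372.9 and 1381.5 to 187.0, 233.8 and 212.6. The UBE2S changes were -2.34 (SE 0.17) in input and -2.68 (SE 0.12) in footprints.

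UBE2S and FBXO5 thus lost a like share of their input, 19.8% and 18.5% of DMSO being retained, but 15.6% of the footprints were retained for UBE2S and 3.64% for FBXO5. UBE2S had few footprints for its input already in DMSO, 0.348, 0.497 and 0.365 per input, and 0.306, 0.366 and 0.278 in trametinib. UBE2C had 1.77, 2.2 and 2.27 in DMSO and 1.22, 1.79 and 1.18 in trametinib. For both enzymes the highest trametinib value lay above the lowest DMSO value, and the density estimates were -0.33 (SE 0.22) for UBE2S and -0.61 (SE 0.29) for UBE2C.

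PTTG1 (ENSG00000164611), the securin that holds separase inactive until the APC/C removes it, had 811.3, 1029.3 and 965.8 normalized input counts in DMSO and 173.0, 153.9 and 169.2 in trametinib. Its footprints were 1596.0, 2419.8 and 2547.6 in DMSO and 222.5, 227.2 and 283.4 in trametinib. Neither assay showed overlap between the treatments. The log2 changes were -2.51 (SE 0.17) and -3.18 (SE 0.20). Footprints per input were 1.97, 2.35 and 2.64 in DMSO and 1.29, 1.48 and 1.67 in trametinib, so PTTG1 was the other gene of the set whose densities did not overlap. Its density estimate, -0.66 (SE 0.29), was not called, and it became -0.85 and was called without the DMSO replicate 1 footprint library. Reads shared between gene symbols were not counted by the authors, so PTTG1, which has near-identical copies, is measured on part of its sequence. Its copy PTTG2 had 0 counts in every input library and 14 to 20 in DMSO footprints.

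The core subunits moved little. ANAPC1 (ENSG00000153107), the largest scaffold subunit, had 1058.1, 1178.1 and 1183.8 normalized input counts in DMSO and 758.0, 714.7 and 689.9 in trametinib. Its footprints were 512.3, 741.8 and 728.0 in DMSO and 426.5, 435.7 and 479.2 in trametinib. ANAPC1 was lower in every trametinib library, by -0.67 (SE 0.14) in input and -0.58 (SE 0.15) in footprints, and its footprints per input overlapped, at 0.484 to 0.63 in DMSO and 0.563 to 0.695 in trametinib.

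CDC16, CDC23 and CDC27 form the arch of tetratricopeptide repeat subunits on which the activators dock. CDC27 (ENSG00000004897) had 1120.4, 1132.8 and 860.3 normalized input counts in DMSO and 794.6, 860.8 and 786.2 in trametinib, which overlapped by a margin of less than 1 count. CDC27 footprints, 965.7, 925.2 and 1091.3 against 778.6, 745.7 and 802.4, did not overlap. CDC23 (ENSG00000094880) likewise overlapped in input, at 218.9, 366.8 and 330.5 in DMSO and 268.1, 260.9 and 255.1 in trametinib. CDC23 footprints were 501.7, 634.3 and 616.6 in DMSO and 379.3, 389.4 and 450.5 in trametinib, without overlap. CDC16 (ENSG00000130177) overlapped in both, with 213.3 to 330.1 in DMSO input and 169.2 to 341.2 in trametinib input, and with 401.2 to 431.5 in DMSO footprints and 353.4 to 434.2 in trametinib footprints. The footprint changes were -0.38 (SE 0.11) for CDC27, -0.54 (SE 0.13) for CDC23 and -0.14 (SE 0.11) for CDC16. Their density estimates lay between -0.30 and -0.01, with SE between 0.18 and 0.31, and the densities of each gene overlapped.

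Counted over the set, 6 of the 10 genes were called lower in input (edgeR, adjusted p under 0.05): FBXO5, CDC20, ANAPC1, UBE2C, UBE2S and PTTG1. Over all tested genes 16.8% were called lower and 15.4% higher in input. In footprints 8 of the 10 were called lower, the same 6 with CDC23 and CDC27, where 25.6% of all tested genes were called lower and 23.9% higher. In ribosome density 1 of the 10, FBXO5, was called lower (DESeq2 likelihood ratio test), where 1.40% of all tested genes were called lower and 0.328% higher. Without the libraries of DMSO replicate 1, the same 6 and 8 genes were called lower in input and footprints. None of the 10 was called higher in any of the 3 comparisons, by edgeR, DESeq2 or limma. Values without overlap and lower in trametinib were found for 6, 8 and 2 of the 10 genes in input, footprints and density, and for 22.6%, 29.2% and 9.11% of all tested genes. The median log2 change of the 10 genes was -1.51, -1.63 and -0.32, against 0.00, -0.01 and 0.00 over all tested genes. Because the genes were chosen with these contrasts known, nothing is read from the counts.

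**Figure D2:**
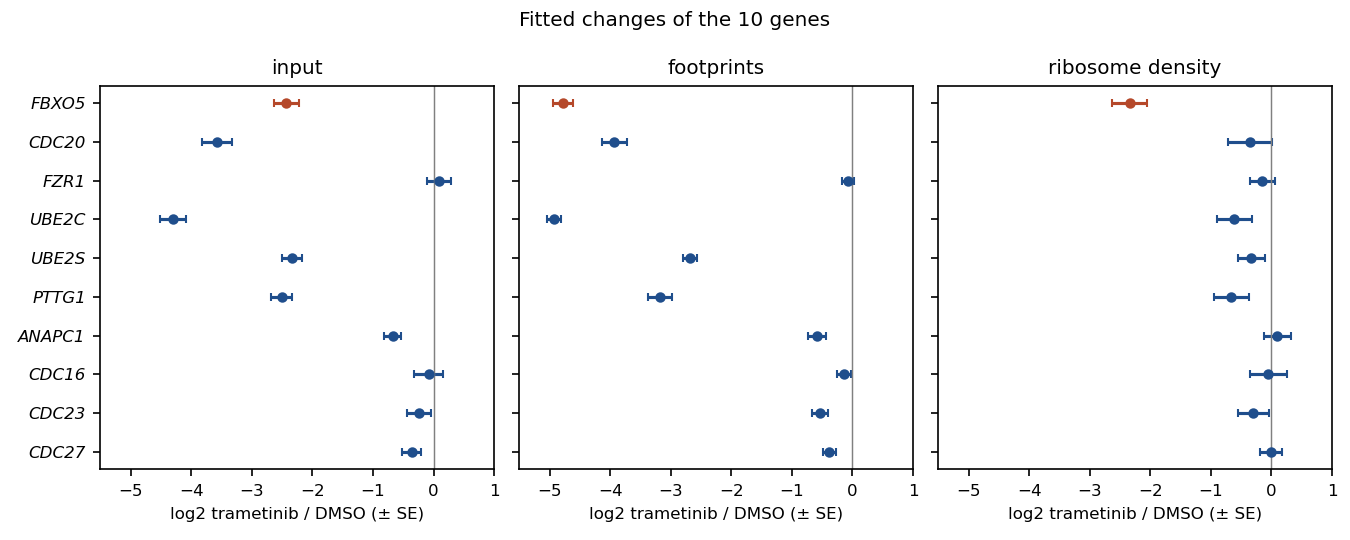
Fitted log2 change of trametinib over DMSO for each of the 10 genes in input, footprints and ribosome density, with bars of 1 SE from 3 replicates per group. FBXO5, in red, was at -2.34 in density, and the other 9 lay between -0.66 and 0.10.

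The number of called footprint changes rested on the milder subunits. With library totals in place of the trimmed mean of M values (TMM), ANAPC1 and CDC27 were not called, and 6 of the 10 remained. The same 6 were left without trametinib footprint replicate 1, and 7 without trametinib footprint replicate 2 or DMSO footprint replicate 3, where CDC27 was lost. Without DMSO input replicate 3, CDC27 was also called in input.

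**Figure D3:**
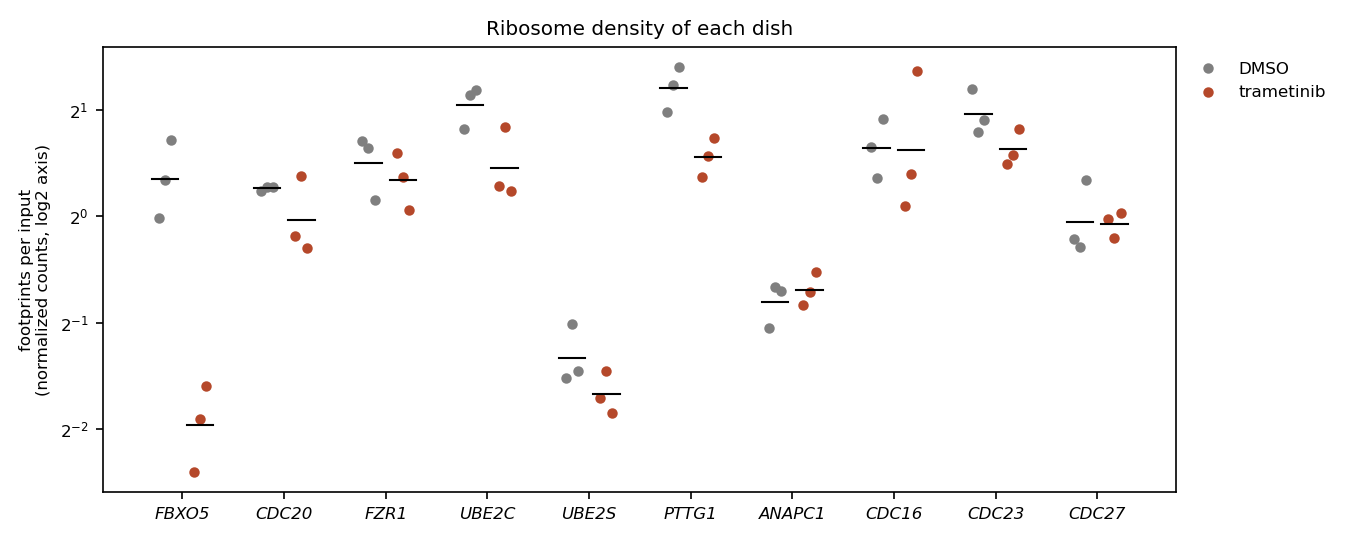
Footprints per input of each replicate on a log2 axis, with 1 point per replicate (grey DMSO, red trametinib) and a bar at the geometric mean. The FBXO5 values went from between 0.991 and 1.64 to between 0.189 and 0.332, and those of PTTG1 also parted, while the other 8 genes overlapped.

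Levels between genes were compared per kilobase of coding sequence. In DMSO input UBE2S was highest, at 5035.4 ± 802.9 normalized counts per kb (SD, n = 3). PTTG1, CDC20 and UBE2C followed between 1536.0 and 1239.9, each overlapping with its neighbour. FBXO5, at 367.7 ± 51.5, overlapped with CDC27 above it and FZR1 below it, and ANAPC1, CDC23 and CDC16 were lowest. In trametinib input FBXO5, at 68.4 ± 17.8, and UBE2C, at 62.8 ± 12.7, were at the bottom of the order and overlapped.

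In DMSO footprints per kb, FBXO5 held the middle, at 467.2 ± 53.8, overlapping with FZR1 at 405.1 ± 22.2. In trametinib footprints FBXO5 was the lowest of the 10 genes, at 17.3 ± 2.47. The next gene above it was ANAPC1 at 76.6 ± 4.82, and the ranges of the 3 libraries did not overlap. FZR1, the activator of the G1 form of the complex, was at 391.9 ± 13.4 in those libraries.

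Across the 12 libraries, after the mean of each assay was subtracted, log2 normalized counts of PTTG1 and UBE2C followed FBXO5 with Pearson's r of 0.974 and 0.967. UBE2S was at 0.956, CDC20 at 0.950, the core subunits between 0.281 and 0.853, and FZR1 at -0.09. The 12 points fall into the same treatment groups for every gene and share their libraries, so r is a description without a p-value. The 5 genes outside the set with the highest r, among 8559 genes compared, were NEIL3 (0.992), STIL (0.992), KIF15 (0.989), SKA3 (0.989) and ATAD2 (0.987). Since the likeness used the same values, the changes of these 5 are also a description. Their log2 changes of density were -1.82 (SE 0.40) for NEIL3, a DNA glycosylase, and -1.23 (SE 0.25) for STIL, a centriole duplication factor. KIF15, a spindle kinesin, was at -1.46 (SE 0.34), and SKA3, a kinetochore protein, at -2.77 (SE 0.37). ATAD2, a chromatin ATPase, was at -0.88 (SE 0.23).

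The lists that follow were also chosen with earlier results of these data known, and genes are named from them for their values. Their p-values are therefore a description and no independent evidence. The 10 other APC/C subunits had median log2 changes of -0.15 in input and -0.17 in footprints. In input 1 of the 10 was called lower, ANAPC7, with -0.55 (SE 0.18, edgeR adjusted p = 0.0317), and 0 were called higher. That call was lost in 5 of the 6 fits that left out 1 input library. Over all tested genes, 16.8% were called lower in input and 15.4% higher. In footprints 4 of the 10 were called lower and 1 higher, against 25.6% and 23.9% of all tested genes. ANAPC10, which helps to bind the destruction box of substrates, fell from 90.1 ± 10.5 to 40.8 ± 5.73 normalized footprint counts (SD, n = 3), a change of -1.16 (SE 0.17, edgeR adjusted p = 0.000555). ANAPC11, the catalytic RING subunit, fell from 1153.2 ± 101.2 to 702.9 ± 27.5 footprint counts (edgeR adjusted p = 0.000721). ANAPC7, an arch subunit, and ANAPC15, which helps to release the checkpoint complex, were the others that were lower, by -0.54 and -0.41. ANAPC15 was not called in 4 of the 6 fits that left out 1 footprint library, and without that of DMSO replicate 1 the counts became 5 lower and 2 higher. CDC26, a small protein that stabilizes CDC16, rose from 105.6 ± 15.7 to 178.2 ± 3.11 footprint counts (edgeR adjusted p = 0.00249). Its footprints per input were 2.11 to 2.8 in DMSO and 3.63 to 4.97 in trametinib. The density estimate, 0.76 (SE 0.36, DESeq2 adjusted p = 0.534), rested on 15 to 23 raw counts in DMSO input and 14 to 20 in trametinib input. The leader of CDC26 holds 4 ATG triplets, a number that 6.9% of tested genes reach. Any part of the leader in the rise was not tested. For density 0 of the 10 were called by DESeq2, edgeR or limma. An unadjusted p under 0.05 by DESeq2 was found for 2 of them, and for 844 of all 10663 tested genes. The median density change of these subunits was -0.10.

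Of 14 other regulators of the APC/C and of FBXO5, 13 were tested, and 7 were called lower both in input and in footprints. Over all tested genes, 16.8% were called lower in input and 25.6% in footprints. FBXO43, the meiotic relative of FBXO5, had at most 3 raw counts in any input library and was not tested. The spindle checkpoint genes MAD2L1, BUB1B, BUB3, BUB1 and TTK, the checkpoint remodeller TRIP13 and the kinase PLK1 made up the 7. BUB1 fell from 1353.4 ± 154.8 to 112.8 ± 5.40 normalized input counts and from 1116.2 ± 183.2 to 63.3 ± 11.0 footprint counts (edgeR adjusted p = 3.31e-08 and 6.66e-07). PLK1, whose kinase activity primes FBXO5 for destruction, changed by -4.48 (SE 0.20) in input and -4.70 (SE 0.18) in footprints (edgeR adjusted p = 3.31e-08 and 3.69e-07). TTK changed by -4.15 (SE 0.22) in footprints (edgeR adjusted p = 1.98e-06).

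Apart from PLK1, the listed genes that act on FBXO5 protein had no called change in either assay: BTRC and FBXW11, the beta-TrCP proteins, SKP1 of the SCF ligase, and EVI5, which protects FBXO5. In footprints their estimates lay between 0.15 and 0.22 (edgeR adjusted p = 0.193 to 0.336), and with library totals BTRC and FBXW11 were called higher. For density 0 of the 13 were called by DESeq2, edgeR or limma. Of these 13, 1 had an unadjusted p under 0.05 by DESeq2, as had 844 of all 10663 tested genes. The estimates with the largest size were -0.56 (SE 0.27) for BUB1, -0.47 (SE 0.40) for BUB1B and -0.28 (SE 0.44) for MAD2L1.

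Among 22 other APC/C substrates, 21 were called lower in input and 21 in footprints, against 16.8% and 25.6% of all tested genes. The exception in both was SKP2, with footprint estimate -0.31 (SE 0.36, edgeR adjusted p = 0.501). Without the DMSO replicate 1 library of the assay, all 22 were called lower in input and all 22 in footprints. The median log2 change was -3.58 in input and -4.08 in footprints, larger in size than that of FBXO5 in input and smaller in footprints. CCNA2, the cyclin of S phase and G2, fell from 984.3 ± 356.5 to 34.4 ± 3.96 footprint counts, and AURKB, the kinase of the chromosomal passenger complex, from 1133.2 ± 48.3 to 29.2 ± 4.65. RRM2, the small subunit of ribonucleotide reductase, fell from 3614.4 ± 682.7 to 110.1 ± 16.2 (edgeR adjusted p = 3.75e-06, 1.55e-07 and 3.69e-07 for the 3 genes). The density estimates of these 3 were 0.05 (SE 0.45), -0.44 (SE 0.32) and -0.47 (SE 0.31).

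CCNB2, a mitotic cyclin, was the 1 substrate called lower for density, where 1.40% of all tested genes were. The estimate of CCNB2 was -1.07 (SE 0.31, DESeq2 adjusted p = 0.0375). Its footprints per input were 1.69, 1.67 and 2.32 in DMSO and 0.506, 0.93 and 1.62 in trametinib, which did not overlap by a narrow margin. The call was lost in 13 of 20 alternatives, whose adjusted p ranged from 0.0058 to 0.488 over all 20. CDC25A and FOXM1 had estimates of like size, -1.13 (SE 0.54) and -1.04 (SE 0.41), and did not pass (DESeq2 adjusted p = 0.561 and 0.332). FOXM1, a transcription factor of mitotic genes, was called at -1.28 without the DMSO replicate 1 footprint library. The median density change over the 22 substrates was -0.40, against 0.00 over all tested genes.

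All 11 S phase genes were called lower in input and in footprints, against 16.8% and 25.6% of all tested genes. The medians were -2.67 and -2.95, and without the DMSO replicate 1 library of the assay they were -2.88 and -3.34. CDC45 and GINS2, partners of the replicative helicase, changed in footprints by -5.19 (SE 0.26) and -4.30 (SE 0.46) (edgeR adjusted p = 1.29e-06 and 0.000108). MCM7, a helicase subunit, fell from 4632.5 ± 1595.8 to 373.7 ± 23.2 footprint counts. CDT1, which loads the helicase, fell from 432.5 ± 159.8 to 28.7 ± 11.6. For density 0 of the 11 were called by DESeq2, edgeR or limma. Of these 11, 2 had an unadjusted p under 0.05 by DESeq2, as had 844 of all 10663 tested genes. MCM7 was at -0.95 (SE 0.35, DESeq2 adjusted p = 0.259) and CDT1 at -1.24 (SE 0.54, DESeq2 adjusted p = 0.454). With a term for each dish, MCM7 and CDT1 were called (DESeq2 adjusted p = 6.92e-05 and 0.019), as was MCM5, and MCM7 was also called without the DMSO replicate 1 footprint library.

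**Figure D4:**
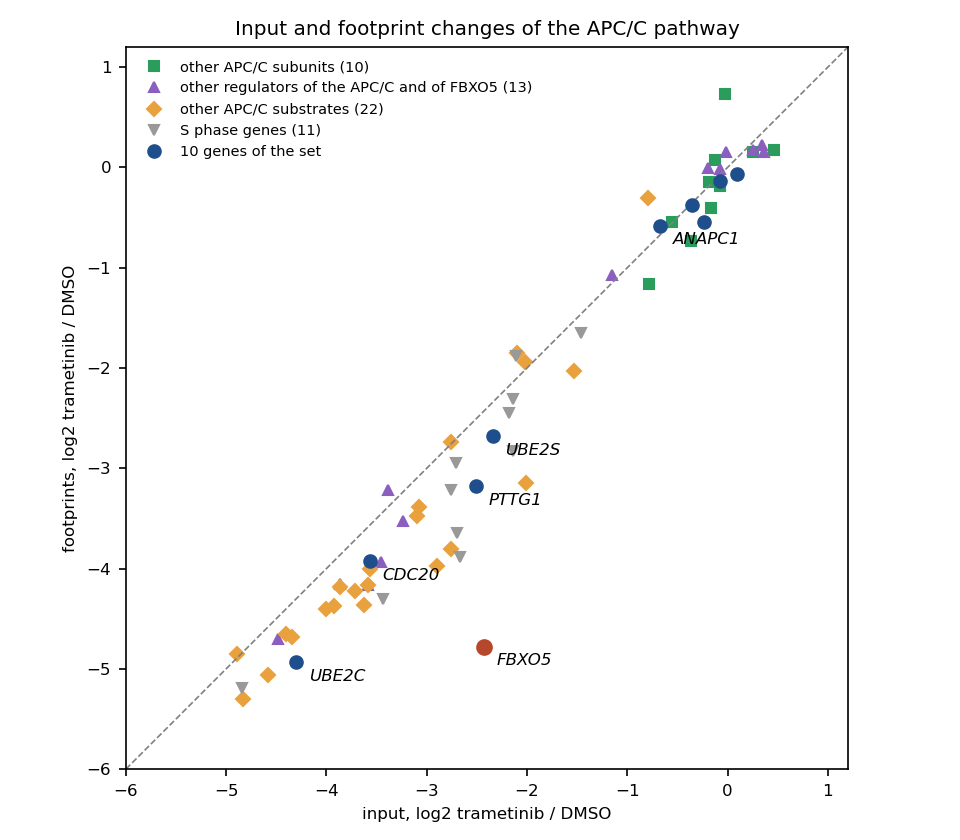
Log2 change of trametinib over DMSO in footprints against that in input, for the 10 genes (blue, FBXO5 red) and for the tested genes of the 4 pathway lists, with the number of genes in brackets. The dashed line marks equal change in both assays, and FBXO5, at -2.43 in input and -4.78 in footprints, lies farthest under it.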

How the data were processed

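Ribo-seq libraries of HCT116 cells were analysed from the count table of the authors. Per the study's methods, adapters were removed, reads aligning to rRNA and tRNA with Bowtie 1.2.2 were discarded, the rest were mapped to the basic Gencode transcript set, and reads of 25 to 35 nt inside annotated reading frames of 1 gene symbol were counted. The deposited table holds raw counts per gene, a normalized signal of the authors (in each of 12 libraries a constant multiple of the counts), and fold changes and adjusted p-values of the authors from DESeq2 1.46.0, which were not used. Of its columns of values per library, 0 were left out.

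A gene was tested where 3 or more input libraries held 10 or more counts. Input and footprints were each tested with the quasi-likelihood test of edgeR 4.0.16 (TMM factors, 6 libraries), and ribosome density with the likelihood ratio test of DESeq2 1.42.0 for the interaction of assay and treatment over 12 libraries (R 4.3.3). These are two-sided tests with Benjamini-Hochberg adjustment over 10663 genes, called under 0.05. The fits were also run on simulated counts with a single dispersion, changes in footprints only and no correlation between libraries of a dish. That setting differs from these data, and no result here rests on it. Members and lists were chosen with earlier results of these data known. The text names all members, and from each list the genes called for density and the 3 with the largest density and footprint changes. It also names the 5 genes most like FBXO5 by Pearson's r of log2(normalized count + 1), after assay means were subtracted, among genes with a mean of at least 50 in both assays. Other list genes were named after their values were seen. Motifs and leaders were read in Python 3.11.15 with pandas 2.3.3 from RefSeq windows and Gencode transcripts of GRCh38, and figures were drawn with matplotlib 3.10.9.

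An input and a footprint library with equal treatment and number were taken as 1 dish, since the methods state that both came from 1 lysate. Pearson's r of their deviations from group means was 0.816, 0.181 and 0.344 for DMSO replicates and 0.141, 0.0809 and -0.122 for trametinib replicates, over 7676 genes. The main density test nevertheless held no term for the dish, which entered in an alternative only. Between DMSO and trametinib, r of same-numbered footprint libraries was 0.117, 0.132 and 0.294, so their numbers were taken as pairs in the alternative with a replicate block. Alternatives were DESeq2, edgeR and limma 3.58.1 (limma-trend, prior count 2), library totals, TMM factors, other count filters, the replicate number or dish as a term, and leaving out each library.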

Additional observations from a re-analysis of the deposited data

How the results depend on the processing

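FBXO5 was called lower in all 3 comparisons under every alternative run, between -2.66 and -2.32 in input, -4.88 and -4.60 in footprints and -2.46 and -2.10 in ribosome density. These alternatives refit the counts on which FBXO5 was chosen, and are no independent evidence. Of 440 alternative values of the 10 genes, 433 moved by less than the spread between replicates. Of the other 7, CDC20 had a density change of -0.07 without trametinib input replicate 3, and 6 were footprint values with library totals: FZR1 0.11, CDC16 0.04, CDC23 -0.37, CDC27 -0.20, UBE2C -4.75 and UBE2S -2.50, under a median of all genes shifted to 0.16. A second tally covered the list genes named by rule, the ERK target genes and the 5 genes most like FBXO5. Of its 1144 alternative values, 21 lost a call and 5 gained one. The lost calls were all in density, 13 for CCNB2, 6 for ATAD2 and 2 for KIF15. Other genes in the text, such as ANAPC7, ANAPC15, BTRC, FBXW11, SKP2 and MCM5, lost or gained calls outside this tally.

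Over all genes, 35 were called higher in density. This became 10 with edgeR, 4 with limma, 142 with library totals and 21 with the replicate block, and ranged from 7 (without trametinib input replicate 2) to 38 when 1 library was left out. The 149 called lower became 87 with edgeR and 99 with limma. With library totals 55.9% of density calls and 64.8% of footprint calls were higher, against 19.0% and 48.3%, and with TMM factors 28.9% of density calls were. The 1641 genes called higher in input ranged from 1069 (without trametinib input replicate 2) to 1767 when 1 library was left out. The cause was not tested.

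Same-numbered input libraries of DMSO and trametinib correlated at 0.0690, 0.0502 and 0.339. Of the 6 input libraries 4 correlated best with their own number, and of the 6 footprint libraries 5. These values do not settle whether equal numbers are pairs across treatments, so the replicate block served as an alternative only. With the replicate block, 1959 genes rose and 2053 fell in input, 2559 rose and 2725 fell in footprints, and 145 fell in density, and the calls of the 10 genes did not change. Of the list genes, CCNB2 lost and MCM7 gained a density call, ANAPC2 gained an input call, and no footprint call changed. The dish term gave 24 higher and 163 lower in density. Input depth limits density: UBE2C rested on 10 to 15 raw counts in trametinib input.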
